A study of Homo sapiens with 4 samples.

Results

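Of 21212 genes that were bright in Hep3B cells, 91 had a lower signal with each of 3 hairpins against UNC50 than with a mock hairpin, and these 91 genes are described here. Bright means that the scanner software marked every spot of the probe well above background on all 4 arrays, and 34809 gene names stand on the array. A gene was represented by its bright probe with the highest mean, and it was chosen when its scaled signal was at least 1.5-fold below the mock array with every hairpin. This held for 100 genes, 0.471% of the bright genes. UNC50 itself and 8 other genes (CCND1, MMP7, AKR1B10, GAST, LCN2, REG1A, REG3A and REG3G) were left out by name. The members were thus selected on the same array values that are reported here, so the falls are a description and carry no test.

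UNC50 is a membrane protein of the Golgi apparatus, which was first found through worms with uncoordinated movement and which takes part in the transport of receptors to the cell surface. Hepatoma cells secrete plasma proteins and respond to cytokines through NF-kB and STAT factors, which switch on genes of acute phase and antimicrobial defence. TNF and lymphotoxin-beta are related cytokine ligands of that system, CXCL10 is a chemokine induced by interferon, and TLR7 and NOD2 sense microbial products. Several other genes in the set, such as GPA33, FABP6 and CDH17, are best known from the intestinal epithelium, whose genes liver tumour cells can also express.

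Hep3B is a human hepatocellular carcinoma cell line. Cells were transfected with a plasmid that carried shR-MOCK, shR-467, shR-554 or shR-749, and the labels call all of them purified. The authors describe pLKO.1 plasmids and puromycin for shR-MOCK, shR-554 and shR-749, so the mock cells share both with these hairpins. For the shR-467 plasmid they give no such description. Each condition was 1 array of total RNA, and the labels name no separate cultures. The 3 hairpins were read as 3 replicates of UNC50 knockdown, and effects that belong to a single hairpin are part of their spread. All 4 arrays lay on 1 slide and in 1 scan. With 1 mock array against 3, the smallest p that an exact permutation test could give is 0.25. A gene whose probe read high on the mock array would also meet the rule, and this cannot be told apart from knockdown with 1 mock array.

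Wherever 3 values follow a mock value, shR-467 comes first, then shR-554, then shR-749, and signals are scanner units before scaling. UNC50 read 5010 on the mock array against 1050, 853 and 947, and after scaling its log2 differences from mock were -2.06, -2.87 and -2.42. Hepatocyte markers were bright in 6 of 6 cases (ALB, AFP, TTR, APOA1, SERPINA1 and TF), with a summed signal of 409782 on the mock array and 496768 to 626982 on the hairpin arrays. Per array, 67.6% to 73.6% of the spots stood well above background, and the median of all bright genes differed from mock by at most 0.04 on the log2 scale. A limma fit over all 21212 bright genes called 0 of them after Benjamini-Hochberg adjustment, with 345 at an unadjusted p under 0.05.

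Among the 91 genes, 64 matched a protein-coding gene of RefSeq and 12 were named only by a long intergenic noncoding RNA (lincRNA) interval. On the array 13 bore only a provisional name, an accession or a probe name, and 2 were noncoding RNAs with a symbol. Of these 13, LOC100133991 and LOC126536 matched the RefSeq noncoding RNAs MAP3K14-AS1 and LINC00661 by accession. The probes of 10 members without a coding gene are shown, since for most of them the array annotation gives only an interval or a provisional name. LOC100131907 had the largest mean fall of all 91. The lincRNA on chromosome 3 came next among those without a coding gene, the pairs on chromosomes 7 and 17 are neighbours, and UCA1 and LOC126536 lie near each other. Positions were taken from the array's annotation (hg19), and gene models of that build were not used here. The 60-base probes are written 5′ to 3′ in lower case, with no part singled out.
LOC100131907: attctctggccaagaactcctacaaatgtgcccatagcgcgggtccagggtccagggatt
lincRNA chr3: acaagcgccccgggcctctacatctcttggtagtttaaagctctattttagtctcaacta
UCA1: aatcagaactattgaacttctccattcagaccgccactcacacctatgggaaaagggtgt
LOC126536: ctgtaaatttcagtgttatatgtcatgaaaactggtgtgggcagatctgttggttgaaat
lincRNA chr7, first: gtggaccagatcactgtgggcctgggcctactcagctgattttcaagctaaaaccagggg
lincRNA chr7, second: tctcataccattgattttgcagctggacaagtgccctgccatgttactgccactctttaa
lincRNA chr17, long: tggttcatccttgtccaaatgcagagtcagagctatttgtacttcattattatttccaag
lincRNA chr17, short: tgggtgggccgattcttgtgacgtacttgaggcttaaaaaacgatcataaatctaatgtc
lincRNA chr11: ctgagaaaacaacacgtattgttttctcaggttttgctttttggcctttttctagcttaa
DLEU2L: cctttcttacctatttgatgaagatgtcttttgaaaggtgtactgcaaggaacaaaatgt
LOC100131907 was placed at chr19:426905-426964 on the minus strand, UCA1 at chr19:15946035-15946092 and LOC126536 at chr19:16138105-16138164, both on the plus strand, and DLEU2L at chr1:64014962-64015021 on the plus strand.

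The depth of the fall varied widely. The mean of the 3 log2 differences from mock had a median of -1.07 over the 91 genes, with quartiles at -1.37 and -0.85 and a range from -2.95 to -0.67. The same mean had a median of 0.00 over all bright genes. The spread between hairpins (SD) had a median of 0.27 in the set and 0.22 over all bright genes. In 24 of the 91 genes every hairpin lay at least 2-fold below mock, and in 9 the mean fall reached 4-fold. Just inside the threshold stood CTSO and a lincRNA at chr7:22900563-22901021, whose shallowest differences were each -0.59. Just outside it stood IKBKE at -0.58, PCDH7 at -0.58 and a lincRNA on chromosome 8 at -0.58.

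**Figure D1:**
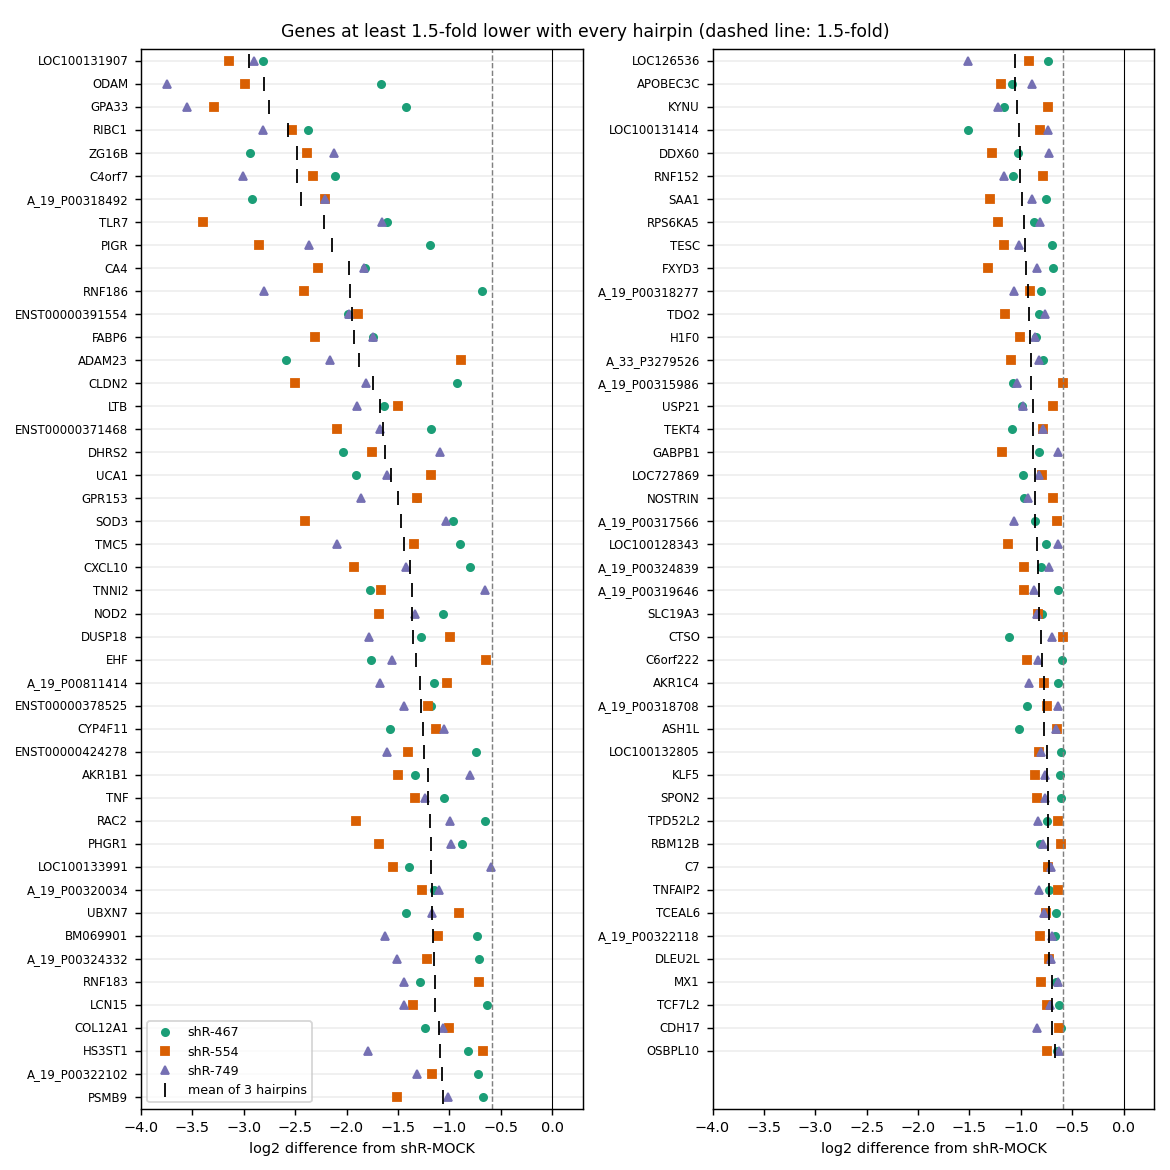
Log2 difference from the shR-MOCK array (horizontal axis) for 90 of the 91 genes, sorted by the mean of the 3 hairpins, which is drawn as a vertical tick. LincRNA intervals are written by their probe names. Most genes lie between the 1.5-fold line and -1.5, and the widest spreads between hairpins are those of GPA33, RNF186, ODAM and TLR7.

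The hairpins differed in depth. Taken singly, shR-467 lay at least 1.5-fold below mock in 4.29% of all bright genes, shR-554 in 7.88% and shR-749 in 6.22%. In the set shR-554 gave the lowest value in 40 genes, shR-749 in 29 and shR-467 in 22. Over all bright genes shR-554 was lowest in 33.1%, and in the set it was lowest in 44.0%. The order shR-554 below shR-749 below shR-467 was seen in 27 genes, or 29.7%, beside 19.6% of all bright genes. The members were chosen on these same values, and shR-554 alone lowered the largest share of all bright genes. The lowest UNC50 signal after scaling was also that of shR-554, and a link between it and these orders was not tested. The median difference over the set was shallowest for shR-467 (-0.94), then came shR-749 (-1.03) and shR-554 (-1.13).

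Cytokine and innate immune genes made up 12 members. TNF and LTB encode ligands of the TNF family that activate NF-kB through their receptors. The LTB signal was 2690 with shR-MOCK against 758, 1180 and 727 with the hairpins, a mean log2 difference of -1.68 ± 0.20 (SD, n = 3 hairpins). TNF gave 147 on the mock array against 61.9, 72.3 and 63.2, with a mean difference of -1.21 ± 0.14. In both genes the hairpins lay close together. CXCL10, which attracts activated T cells, had a signal of 2225 with shR-MOCK and 1119, 727 and 839 with the hairpins. Its mean difference was -1.38 ± 0.57, shallower with shR-467 (-0.80) than with shR-554 (-1.93).

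TLR7, an endosomal receptor of single-stranded RNA, read 315 on the mock array and 90.6, 37.1 and 101 on the hairpin arrays. NOD2, a cytosolic sensor of bacterial wall peptides, read 209 and then 87.8, 80.8 and 83.9. The 3 hairpins lay together in NOD2 (-1.36 ± 0.31), while in TLR7 the shR-554 array was far below the others (-2.22 ± 1.02). PIGR carries polymeric immunoglobulins across epithelia, and its signal was 519 with shR-MOCK and 199, 89.0 and 102 with the hairpins. RAC2, a small GTPase of blood cells, gave 1505 on the mock array and 837, 498 and 760. Both had their lowest value with shR-554, at -2.85 for PIGR and -1.91 for RAC2.

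SAA1, a serum amyloid protein of the acute phase, was the only member in the acute phase list and gave 297 on the mock array and 154, 149 and 162 on the others. Its neighbour SAA2 is nearly identical and read lower too (-0.46, -1.06 and -0.82), so the SAA1 signal is uncertain as to its source. On the same list 2 genes were at least 1.5-fold higher with every hairpin. These were FGA (0.68, 1.48 and 2.39) and FGB (0.65, 1.94 and 2.67). C4orf7, now named FDCSP, is a secreted peptide of follicular dendritic cells and differed by -2.11, -2.33 and -3.01. The complement component C7 and TNFAIP2, a gene induced by TNF, had the same mean difference of -0.73. In C7 this mean was less certain than its SD of 0.02 over hairpins, since its spots of 1 array differed by an SD of up to 1.03. In this group of 12 genes shR-554 was the lowest in 8, beside 44.0% of the 91 members and 33.1% of all bright genes. The shallowest hairpin was shR-467 in 9 of the 12, beside 50.5% of the members and 40.0% of all bright genes.

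RAC2, TLR7 and LTB are known from leukocytes. PTPRC, the common leukocyte antigen, was bright and read 81.5 on the mock array and 106, 62.8 and 58.1 on the others, a difference of 0.57, -0.69 and -0.50 after scaling. The monocyte marker CD14 read 1750 and then 2743, 2595 and 1820, with each difference above 0, and the T cell marker CD3E was not bright. The labels give purified Hep3B cells, which are a hepatoma line, for every array, and name no leukocytes. Any part of other cells in these members' values was not tested. In bulk RNA fewer cells of a kind and less RNA per cell cannot be told apart.

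The interferon-induced members were PSMB9, APOBEC3C, DDX60 and MX1. PSMB9, a subunit of the immunoproteasome, differed by -0.67, -1.51 and -1.02 with the hairpins. DDX60, a helicase of antiviral defence, differed by -1.02, -1.28 and -0.73. MX1, an antiviral GTPase, read 121 on the mock array and 66.8, 85.8 and 78.7 on the hairpin arrays. APOBEC3C, a cytidine deaminase, differed by -1.05 ± 0.15 on average, and its probe shares a run of at least 20 bases with a probe of APOBEC3F, which differed by -1.08. The APOBEC3C value may therefore hold signal of APOBEC3F. All 4 were lowest with shR-554, beside 44.0% of the 91 members. MX1 was the only member of the interferon-stimulated list, of which 12 of 20 genes were bright. The list's median was -0.12, and other genes of it stood higher, such as ISG15 (0.24, 0.32 and 0.41).

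Genes of gut and secretory epithelium had the lowest median of the role groups, which were drawn up after the values were seen, with -1.93 over 11 members. ODAM, a secreted protein first described in ameloblasts, had a signal of 8650 on the mock array and 2390, 1350 and 649 with the hairpins. GPA33, a surface antigen of intestinal epithelium, gave 365 and then 119, 46.2 and 31.3. Both were lowest with shR-749, and GPA33 had the widest spread over hairpins in the set (SD 1.16). ZG16B, a secreted lectin-like protein, went the other way between hairpins, with 2250 on the mock array and 256, 534 and 523 with the hairpins. Its lowest value was with shR-467.

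CA4, a membrane-bound carbonic anhydrase, had a signal of 355 with shR-MOCK against 87.8, 90.7 and 100 (-1.98 ± 0.26). FABP6, the ileal bile acid-binding protein, had 333 against 86.9, 83.7 and 100 (-1.93 ± 0.32). In these 2 genes the hairpins lay near one another. CLDN2, a pore-forming claudin of tight junctions, read 414 on the mock array and 191, 91.0 and 119 on the others. RNF186, a ubiquitin ligase of the colon, read 202 and then 110, 46.9 and 29.2. For these genes shR-467 was well above the other hairpins, with differences of -0.92 in CLDN2 and -0.68 in RNF186.

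PHGR1, a small protein of gut epithelium, gave 755 on the mock array and 359, 292 and 385 with the hairpins. LCN15, a lipocalin, gave 16900 and then 9540, 8190 and 6280. FXYD3, a regulator of the sodium pump, differed by -0.95 ± 0.33, and CDH17, the liver-intestine cadherin, by -0.69 ± 0.13. shR-467 was the shallowest hairpin in 10 of the 11 epithelial genes, beside 50.5% of the 91 members and 40.0% of all bright genes. The median difference of the group was -0.92 with shR-467 but -1.81 with shR-749 and -2.30 with shR-554.

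**Figure D2:**
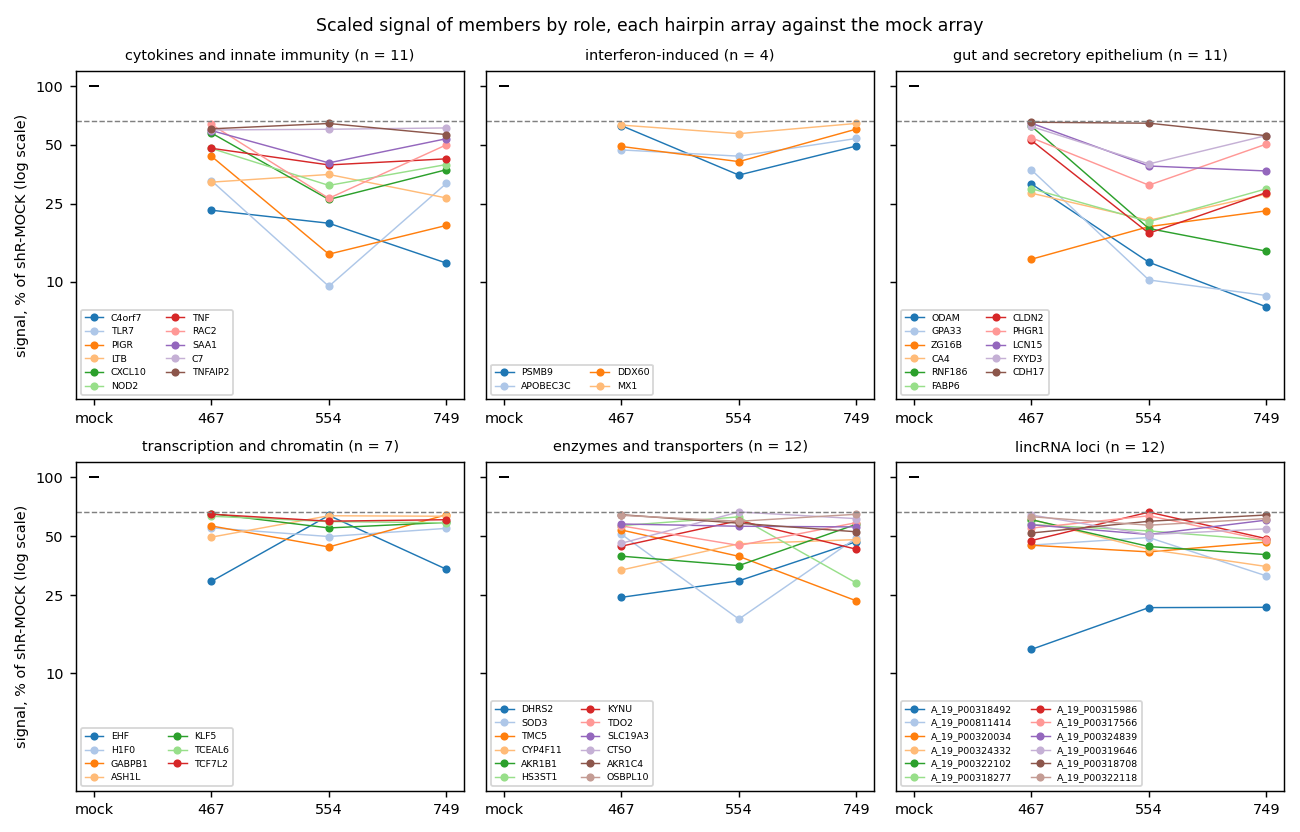
Scaled signal of the members in 6 of the role groups, as a percentage of the shR-MOCK array (log scale, with 11 of the 12 cytokine and innate immune genes drawn), for each hairpin on the horizontal axis. Lines only join the values of 1 gene, and the dashed line is 1.5-fold below mock. In the epithelial panel 10 of 11 genes are highest with shR-467, and the interferon-induced genes are all lowest with shR-554.

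Enzymes and transporters accounted for 12 members with a median mean difference of -1.07. DHRS2, a short-chain reductase, gave 686 with shR-MOCK and 146, 252 and 325 with the hairpins. SOD3, the extracellular superoxide dismutase, gave 197 and then 88.3, 46.2 and 97.7. TMC5, of a family of channel-like membrane proteins, gave 253 and then 119, 124 and 59.7. Each of these 3 genes had its lowest value with a different hairpin.

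CYP4F11, a fatty acid hydroxylase of the liver, read 122 on the mock array and 35.8, 69.3 and 59.2 on the hairpin arrays. AKR1B1, the aldose reductase, read 195 and then 67.5, 85.8 and 113. The array annotation places the AKR1B1 probe on chromosome 3, whereas RefSeq has the gene on chromosome 7, so what this probe detects is uncertain. TDO2 and KYNU are enzymes of tryptophan breakdown to kynurenine and beyond. TDO2 differed by -0.82, -1.16 and -0.77 and KYNU by -1.17, -0.73 and -1.22, so that their lowest hairpins differed. SLC19A3, a thiamine transporter, lay within a narrow range of -0.79 to -0.84. HS3ST1, CTSO, AKR1C4 and OSBPL10 completed the group, with means from -1.09 for HS3ST1 to -0.67 for OSBPL10, the smallest mean fall of the 91.

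Among transcription and chromatin genes (7 members, median -0.78), EHF showed the deepest fall. EHF is an epithelial ETS factor, and its signal was 543 with shR-MOCK and 139, 431 and 186 with the hairpins. Only its shR-554 value lay near the threshold, at -0.65. KLF5, another epithelial factor, differed by -0.62, -0.86 and -0.76. The linker histone H1F0 had a mean difference of -0.91 ± 0.08. GABPB1, a subunit of the ETS factor GABP, and the histone methyltransferase ASH1L had means of -0.88 and -0.78. TCF7L2, the nuclear effector of Wnt signalling, and TCEAL6 each had another bright probe that lay above mock.

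Of the matrix, adhesion and cytoskeletal genes, RIBC1 stood lowest. RIBC1, a protein of ciliary microtubules, had a signal of 349 on the mock array and 58.7, 75.2 and 50 on the hairpin arrays. Its further probes were bright on no array and read 4.22 and 13.4 with shR-MOCK, so the fall rests on the chosen probe alone. ADAM23, a disintegrin-like adhesion protein, had 276 and then 39.9, 184 and 62.0. The ADAM23 fall was shallow with shR-554 (-0.89) and deep with shR-467 (-2.59). TNNI2, a troponin of fast muscle, had 695 with shR-MOCK and 177, 273 and 447 with the hairpins. COL12A1, a collagen that binds fibrils, had a mean of -1.10 ± 0.12, and the matrix protein SPON2 one of -0.74 ± 0.12. TEKT4, a tektin of cilia and sperm tails, differed by -0.88 on average, and its probe shares at least 20 bases with one of LOC100132288, which differed by 0.13.

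The ubiquitin and signalling group held 10 members. GPR153, an orphan receptor, gave 205 with shR-MOCK and 72.2, 102 and 57.1 with the hairpins. DUSP18, a dual-specificity phosphatase, gave 141 and then 51.0, 87.7 and 41.4. UBXN7, which links the p97 ATPase to ubiquitin ligases, gave 319 and then 104, 212 and 143. In all 3 genes the fall was shallower with shR-554 than with shR-749.

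RNF183, a ubiquitin ligase, read 94.4 on the mock array and 33.9, 71.6 and 35.2 on the hairpin arrays. The related RNF152 differed by -1.07, -0.78 and -1.16, again shallowest with shR-554. The deubiquitinase USP21 and NOSTRIN, which binds nitric oxide synthase, were likewise shallowest with shR-554, at -0.69 in both. RPS6KA5, a kinase that acts on chromatin, TESC, a calcium-binding protein, and TPD52L2 had means of -0.97, -0.96 and -0.74. shR-554 was the shallowest hairpin in 7 of these 10 genes, beside 25.3% of the 91 members and 33.6% of all bright genes. The remaining coding members, C6orf222 and RBM12B, had means of -0.79 and -0.73.

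UCA1, a long noncoding RNA of urothelial cancer, had a signal of 11700 with shR-MOCK and 2720, 6430 and 3870 with the hairpins. The fall was deepest with shR-467 (-1.91). DLEU2L, a copy of a noncoding gene deleted in leukaemia, read 554 and then 292, 415 and 342. It had the smallest spread of the set, with differences of -0.73, -0.73 and -0.71. LOC100131907 differed by -2.82, -3.14 and -2.90, and its lowest signal was only 1.5 times the limit, which is the lowest signal of any probe well above background on the same array. The lincRNA at chr3:194017423-194030592 (minus strand) differed by -2.92, -2.21 and -2.21.

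LincRNA intervals made up 13.2% of the members and 19.0% of all bright genes. Other bright probes inside an interval did not always move with the member. On the minus strand of the chromosome 3 interval, 3 other bright probes had mean differences of 0.02, 0.19 and 0.39, against -2.45 for the member. In the chromosome 11 interval, which holds MALAT1, a long nuclear RNA, the member differed by -0.83. A probe named MALAT1 on the same strand differed by -0.50, 2 further plus-strand probes by -0.01 and -0.05, and another probe of the member's own interval by 0.07. On the opposite strand 5 bright probes had means of 0.22 to 0.37. On chromosome 17 the long member was at -0.83 and the short one inside it at -0.78, while other bright minus-strand probes ranged from -0.68 to 0.25.

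Some genes had more than 1 probe. There were 23 further probes for 19 of the member genes, 13 of them bright on all 4 arrays. The probes of a gene share its RNA and the mock array. Another 8 were bright on no array, namely probes of RIBC1, CYP4F11, COL12A1, RPS6KA5, FXYD3, SLC19A3 and DLEU2L. Of the 13 bright probes, 6 lay below mock with every hairpin. A CXCL10 probe gave 1950 on the mock array and 1090, 721 and 782 with the hairpins, a mean of -1.24 beside -1.38 for the chosen probe. An ADAM23 probe had a mean of -1.29, the bright FXYD3 probes -0.94 and -0.72, the AKR1C4 probe -0.61 and the RAC2 probe -0.38. Only the ADAM23 and CXCL10 probes were at least 1.5-fold lower with every hairpin.

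Other probes did not follow the chosen one. The further probe of UBXN7 had a mean difference of 0.08, that of RBM12B 0.03 and that of GABPB1 0.02. For USP21 it was -0.15, with values on both sides of 0. In TCF7L2 the chosen probe lay at chr10:114724321-114724380 and differed by -0.70 ± 0.06, whereas a probe at chr10:114911485-114911544 differed by 0.22 ± 0.08. A further TCF7L2 probe, bright on 3 of the 4 arrays, lay below mock with every hairpin (-0.54, -0.22 and -0.10). The probes of TCEAL6 differed by -0.73 ± 0.06 and 0.23 ± 0.13, and TCEAL6 has near-identical relatives on chromosome X. For these 6 genes the fall belongs to 1 probe and not to every bright probe of the gene.

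**Figure D3:**
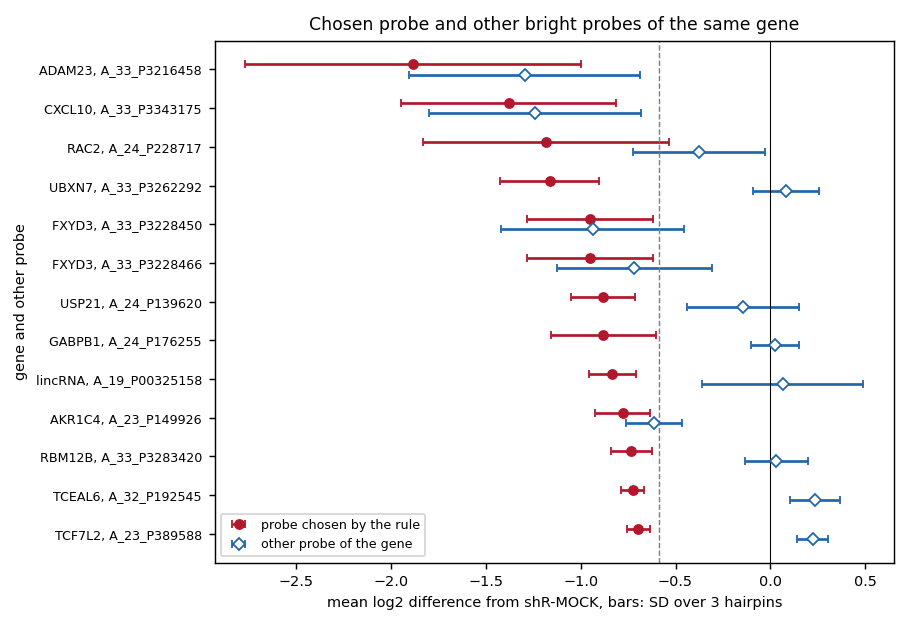
Mean log2 difference from shR-MOCK with its SD over 3 hairpins, for the probe that chose the gene and for each other bright probe of that gene. ADAM23, CXCL10, FXYD3 and AKR1C4 have other probes near the chosen one, while those of UBXN7, GABPB1, RBM12B, TCEAL6 and TCF7L2 lie above 0.

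Repeated spots show the error of the array surface. Of the 91 probes 59 had 1 spot, 28 had 2 and 4 had 10. Among the 32 with repeats the median SD between spots of an array was 0.06 on the log2 scale. In 31 of them the lowest scaled mock spot lay above the highest hairpin spot, and C7 was the exception. The rule chose the genes on the means of these same spots, so this separation largely follows from the choice and lends the falls no support. The 19 members whose lowest signal was under 2 times the limit include LOC100131907, GPA33, TLR7 and RNF186. At the other end 31 members were at least 10 times above it, among them ODAM, LTB, UCA1, CXCL10, LCN15, TESC and FXYD3.

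With normexp background correction, an added offset of 50 and quantile normalization, which together also shrink the differences of dim probes, 50 of the 91 genes still met the rule. With quantile normalization alone 88 did, and the background model and the offset were not run apart. The 50 genes that met the rule with the combination included 7 of the 19 dim members, and 24 of the 31 at 10 times the limit or more. By role, 9 of 11 epithelial genes and 8 of 12 cytokine and innate immune genes met it, but 2 of 7 transcription genes and 5 of 12 lincRNA loci did. RNF186, SAA1, MX1, AKR1B1, EHF, KLF5, TNFAIP2, CDH17 and TCF7L2 were among those that did not.

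**Figure D4:**
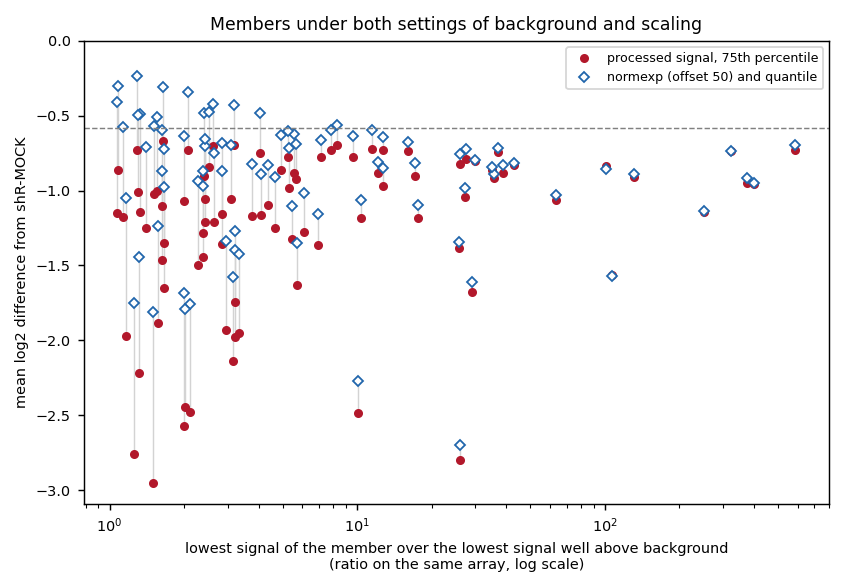
Mean log2 difference of 90 of the 91 members with the processed signal and with normexp, offset and quantile normalization, against its lowest signal as a multiple of that limit (log scale). Grey lines join the values of 1 gene, and the values draw apart on the left, where signals are near the limit.

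Some members lie beside each other in the genome. Of 83 members with an hg19 position, 9 (10.8%) lay within 250 kb of another member, in 6 pairs. Genes raised at least 1.5-fold with every hairpin numbered 121 (0.57% of bright genes), and 15 of the 118 with a position (12.7%) lay within that distance of another. Such neighbours were thus no more frequent among the members than among the raised genes. The share for sets drawn from all bright genes is not given here. TNF and LTB are 2439 bases apart on chromosome 6, at chr6:31545837-31545896 and chr6:31548335-31548394. The 31 other bright genes around them had a median difference of -0.01, with a range from -0.42 to 1.75, and the highest was NCR3, a receptor of natural killer cells.

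UCA1, CYP4F11 and LOC126536 lie within 192013 bases on chromosome 19. The 11 other bright genes around them had a median of 0.00 and a range from -0.30 to 0.55. Between UCA1 and CYP4F11 lies CYP4F2, which differed by 0.03, -0.82 and 0.26. In the lincRNA pairs the chromosome 7 probes are 386 bases apart on 1 strand and the chromosome 17 intervals overlap. The members of such a pair are thus no separate evidence, although all counts given here hold each of them singly. In the order of RefSeq protein-coding genes (GRCh38.p14), ODAM stands next to FDCSP and TDO2 next to CTSO, and each of these pairs holds only members. How often this holds for other sets of genes is not given here. AKR1B1 stands next to AKR1B10, 1 of the 9 genes left out.

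**Figure D5:**
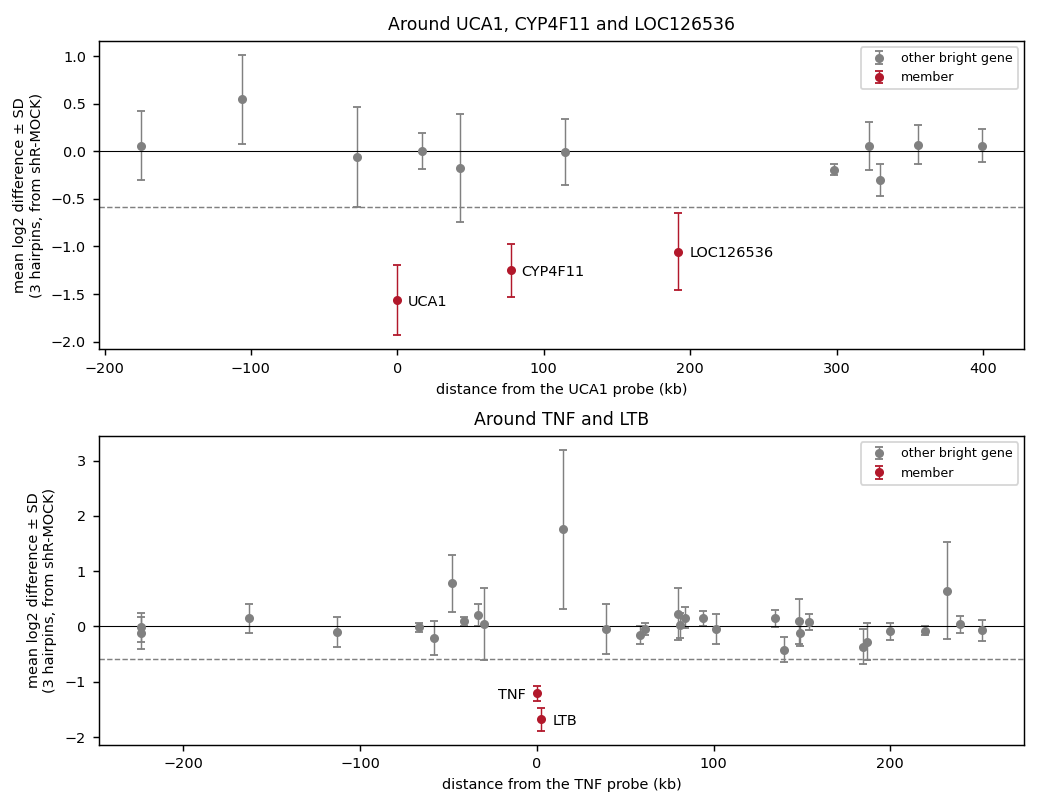
Mean log2 difference from shR-MOCK with its SD over 3 hairpins for bright genes within 250 kb of the members, against distance from the UCA1 probe (top) or the TNF probe (bottom). Members are red. The members lie between -1.06 and -1.68, and all other genes shown lie above the 1.5-fold line.

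Upstream sequence was at hand for 50 members, as the 250 bases before and 50 after the RefSeq start on GRCh38.p14. The upstream 250 bases of TNF, LTB and CXCL10 are shown as examples from the cytokine and innate immune group. In that order they lie at chr6:31575315-31575564 (plus strand), chr6:31582426-31582675 (minus strand) and chr4:76023498-76023747 (minus strand). Capitals mark letters that match a loose NF-kB motif on either strand.
TNF: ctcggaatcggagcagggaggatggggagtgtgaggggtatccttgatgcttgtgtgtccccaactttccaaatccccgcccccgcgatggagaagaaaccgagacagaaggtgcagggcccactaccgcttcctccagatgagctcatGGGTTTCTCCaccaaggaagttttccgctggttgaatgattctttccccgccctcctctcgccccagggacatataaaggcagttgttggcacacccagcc
LTB: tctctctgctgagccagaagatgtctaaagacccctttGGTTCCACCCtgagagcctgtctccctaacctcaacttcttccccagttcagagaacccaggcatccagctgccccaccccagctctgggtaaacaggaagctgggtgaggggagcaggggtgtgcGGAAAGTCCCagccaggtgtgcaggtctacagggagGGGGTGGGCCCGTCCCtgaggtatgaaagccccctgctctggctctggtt
CXCL10: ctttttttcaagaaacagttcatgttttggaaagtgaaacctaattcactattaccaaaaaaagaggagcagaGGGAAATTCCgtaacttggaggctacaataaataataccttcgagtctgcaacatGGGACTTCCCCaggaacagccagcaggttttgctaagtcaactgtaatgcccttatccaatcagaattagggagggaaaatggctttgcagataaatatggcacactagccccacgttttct
This motif is so short that it was found in 68.0% of the members' windows, 72.5% of those of bright genes and 58.0% of all 27305 windows.

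Other motifs were searched on both strands as plain letters. A TATA box (TATAAA) was present in 11 of 50 member windows, or 22.0%, beside 6.87% for bright genes, 12.0% for all windows and 3.33% for raised genes. In TNF, DHRS2 and AKR1C4 it began 29 bases before the start. AP-1 letters (TGANTCA) were in 6 of 50 member windows, or 12.0%, beside 4.70% for bright genes and 7.76% for all windows. Antioxidant-response letters (TGACNNNGC) were in 26.0% of members, 15.0% of bright genes and 13.6% of all windows. GC boxes (GGGCGG) were in 48.0% of members, 67.1% of bright genes and 44.6% of all windows. CTTTGAT, the TCF/LEF motif, was found in 1 of 50 member windows, or 2%, beside 1.58% for bright genes and 2.64% for all windows. Some letters overlap between motifs, and a match is not a binding site.

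The 17 gene lists that stand for pathways held few of the 91 genes. In the NF-kB response list 16 of 19 genes were bright and 0 were 1.5-fold lower with every hairpin, yet 11 of the 16 lay below mock with all hairpins, beside 18.4% of all bright genes. The list's median was -0.52. Such genes were also frequent in other lists, with 4 of 7 YAP and TEAD targets, 9 of 17 mitosis genes, 10 of 20 in the ERK list, 8 of 17 NRF2 targets, 5 of 11 TGF-beta and BMP targets and 6 of 17 Wnt targets. NFKBIA, the inhibitor of NF-kB, differed by -0.34, -0.60 and -0.69. The chemokine CXCL1 differed by -1.52, 0.41 and -1.64 and so missed the rule through shR-554 alone, the hairpin with which CXCL10 and TNF were lowest.

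Lists of YAP and TEAD targets (7 bright, median -0.60), TGF-beta and BMP targets (11 bright, -0.34), NRF2 targets (17 bright, -0.23) and Wnt and beta-catenin targets (17 bright, -0.21) held AKR1B1 as their only member gene. Of the ERK feedback and immediate early list only CCND1 was 1.5-fold lower with every hairpin, and it was left out by name. In the list of gastrointestinal secretory genes 12 were bright, 0 were members and the median was -0.05, and none of the 11 epithelial members stands on that list. Hepatocyte plasma proteins (19 bright, median 0.30) and sterol synthesis (22 bright, median 0.34) lay on the other side of 0. The remaining lists held SAA1 and MX1 and had medians from -0.17 for mitosis to 0.11 for the acute phase.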

How the data were processed

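Total RNA of Hep3B cells was hybridised in 1 colour (Cy3) to Agilent arrays, 1 array for shR-MOCK and 1 for each hairpin against UNC50. For each array the authors deposited the scanner's intensity values, from which Agilent Feature Extraction 10.7.1.1 (submitters' processing notes) had subtracted the background. A table of the authors' processed log2 values was used as an alternative, and its normalization is not given in the sources used here. It holds 0 columns of other samples.

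From the intensity of each spot the log2 value was taken, the 75th percentile of that array over all spots other than controls was subtracted, outlier-marked spots were dropped and the mean was taken over the other spots of each probe. No spot was saturated, and the number of arrays limits the precision. The 91 genes and the 17 gene lists were chosen with earlier results of these data known. Role groups were drawn up after the values were seen. Signals on every array are given for the 30 largest mean falls with a RefSeq symbol, members of a list, the extremes of spread and UNC50. SAA2, ISG15 and the other genes that are no members were named after their values were seen.

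Names, upstream sequences and gene order are from RefSeq (GRCh38.p14). Of the 91 genes 63 matched by symbol and 5 by accession, and 23 did not match. One member gene and a marker gene are counted but not reported by name here. A count of hydrophobic stretches in the proteins was planned and was not run. Python 3.11.15 (numpy 2.4.6, pandas 2.3.3, matplotlib 3.10.9) and R 4.3.3 with limma 3.58.1 (lmFit and eBayes with trend) were used, and the limma step was tested on simulated data. The fit takes the spread of the 3 hairpins for the 1 mock array as well.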

Additional observations from a re-analysis of the deposited data

Results flagged for a closer look

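In 2 genes of the set a bright probe that was not used to choose the gene lay above mock with every hairpin. The further TCEAL6 probe had signals of 35.0 with shR-MOCK and 33.1, 56.4 and 40.8 with the hairpins in the same order, and its mean log2 difference after scaling was 0.23 ± 0.13 (SD, n = 3 hairpins). The further TCF7L2 probe read 53.8 and then 57.2, 73.2 and 64.5, with a mean difference of 0.22 ± 0.08. A TCF7L2 probe that was bright on 3 of the 4 arrays lay below mock (-0.54, -0.22 and -0.10). The chosen probes of these genes differed by -0.73 and -0.70. Whether the probes detect different transcripts was not tested.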

How the results depend on the processing

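The count of genes lower with every hairpin was 91, and it became 94 with median scaling (87 of the 91 kept), 96 with quantile normalization (88 kept) and 100 with the authors' processed table (88 kept), and 85 with the mean over a gene's bright probes (81 kept). With normexp, an added offset of 50 and quantile normalization together it fell to 50, with a signal of at least 100 on all arrays to 48, and with a 2-fold threshold to 24. It rose to 279 at 1.3-fold, to 289 with probes bright on the mock array or on all hairpin arrays, to 697 without a filter, and to 599 when the mean had to pass 1.5-fold. Leaving out 1 hairpin gave 256 to 406 genes by construction, as 2 hairpins then decide (shR-554 gives 256, shR-749 gives 264 and shR-467 gives 406 when left out). Under all 4 alternatives of scaling and background 49 genes met the rule. Of 1049 values of single members 997 moved by less than the spread between hairpins, 52 moved further, 44 of them with that combination, and 0 changed sign. Leaving out 1 hairpin could by construction neither move a value past that spread nor change its sign. Settings that only changed the filter on dim probes moved 0 values. The 997 therefore overstate how many values were put to a real check, and with that combination 44 of 91 moved further. The median difference stayed between -1.08 and -0.82 under that combination and the other scalings. limma called 0 to 1 genes when a hairpin was left out, the 1 being REG3A without shR-554, which is no member, and 0 without the trend and by the methods' t-test after Benjamini-Hochberg adjustment, where 324 and 569 genes had an unadjusted p under 0.05. No paired analysis was possible because there is 1 mock array, and a block for slide or scan could not be fitted since all arrays share both.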
